A study of Mus musculus with 2 samples.

Results

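The SLAM family receptors, their relative Cd2 and the adaptor gene Sh2d2a were described in CD4 T cells stimulated in culture, from mice labelled either Gfi1 wild type or Gfi1 knockout. Gfi1 encodes a DNA-binding protein that represses transcription in lymphocytes and other blood cells. The members were every probe to which the platform annotation gives the symbol Slamf1, Slamf6, Slamf7, Cd48, Cd244, Ly9, Cd84, Cd2 or Sh2d2a. These are 9 of the 20738 genes named on the array, read by 15 probes on 24 spots. All 15 probes were above the detection floor on both arrays, so no member was lost to the filter on low signals. That floor, each array's median signal over its probes, lay at 14.2 units on the wild-type-labelled array and 14.6 units on the knockout-labelled array.

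Per the labels, both groups were C57BL/6 and started from naive spleen CD4 T cells, described as low for CD44, high for CD62L and negative for CD25. Both were stimulated for 2 days with antibodies to TCR-β (3 µg/ml, immobilised) and CD28 (1 µg/ml), with IL-2 (10 ng/ml) and neutralising antibodies to IL-4 and IFN-γ (5 µg/ml each). The Gfi1 allele, the age and sex of the animals and the number pooled are not given in the sources used here. RNA of 1 culture per genotype was hybridised to 1 one-colour array each, so there is no spread between cultures and no p-value can be given. The errors below come from within the arrays, over repeated spots of a probe or over different probes of a gene.

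SLAM family receptors are immunoglobulin-type proteins on blood cells, most of which bind their own kind on a neighbouring cell. Cd48 and Cd244 instead bind each other, and in the mouse Cd48 is also the ligand of Cd2. The tails of most SLAM receptors carry tyrosine motifs that recruit the small adaptor SAP, encoded by Sh2d1a, which links them to the kinase Fyn. Without SAP the same motifs can recruit phosphatases such as SHP-1 and SHIP-1. In T helper cells these receptors are known for adhesion to B cells and for tuning cytokine production. Sh2d2a encodes TSAd, another T cell adaptor, which binds Lck and is not a SLAM receptor.

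The receptors of the SLAM family lie together in a locus on chromosome 1, whereas Cd2 and Sh2d2a lie on chromosome 3, by the RefSeq gene table of GRCm38.p6. The stretches before the annotated transcript starts are shown for the members of this locus that stood furthest apart, with Slamf7 and Slamf1 on the higher side and Slamf6 on the lower. They are 250 bases each, 5′ to 3′ on the gene's strand, from RefSeq (build GRCm38.p6). Capitals mark AATC, the core of the sites that GFI1 is known to bind, on either strand, so that GATT in capitals is the same core on the opposite strand. The Slamf7 window is chr1:171649000-171649249 on the minus strand, the Slamf1 window chr1:171766882-171767131 on the plus strand and the Slamf6 window chr1:171917212-171917461 on the plus strand.
Slamf7: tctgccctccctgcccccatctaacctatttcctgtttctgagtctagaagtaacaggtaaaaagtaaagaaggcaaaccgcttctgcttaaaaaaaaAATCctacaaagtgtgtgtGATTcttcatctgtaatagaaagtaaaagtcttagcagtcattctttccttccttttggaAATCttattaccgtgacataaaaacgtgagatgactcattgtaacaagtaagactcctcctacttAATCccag
Slamf1: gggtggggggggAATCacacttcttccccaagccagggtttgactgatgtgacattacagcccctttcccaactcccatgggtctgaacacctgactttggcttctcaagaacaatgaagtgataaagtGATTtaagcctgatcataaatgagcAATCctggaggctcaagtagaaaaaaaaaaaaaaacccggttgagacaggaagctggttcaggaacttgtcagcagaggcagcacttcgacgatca
Slamf6: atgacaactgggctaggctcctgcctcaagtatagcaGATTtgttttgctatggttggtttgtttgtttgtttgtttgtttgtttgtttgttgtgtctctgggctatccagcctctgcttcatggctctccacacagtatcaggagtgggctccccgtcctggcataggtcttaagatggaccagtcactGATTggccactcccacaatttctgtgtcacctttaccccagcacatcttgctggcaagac

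The core occurred 4 times before Slamf7, 3 times before Slamf1 and 2 times before Slamf6. Of 32851 such RefSeq windows, 7.04% hold at least 4 matches, 17.7% at least 3 and 38.7% at least 2. A longer form, AATCAC on either strand, overlaps the core and was searched after the sequences had been seen. It occurred 2 times before Slamf1, at 238 to 233 bases before the start on the plus strand and at 123 to 118 bases before it on the minus strand, and 0.575% of windows hold it at least 2 times. Slamf7 held it 1 time, on the minus strand at 135 to 130 bases before the start, and 9.14% of windows hold it at least 1 time. Slamf6, Cd48, Cd244 and Cd84 held 0 matches of the longer form, and their counts of the core were 2, 3, 1 and 1. The table matched 6 of the 9 members, so Ly9, Cd2 and Sh2d2a are named here only. These counts of letters show no binding.

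The libraries differed in more than their genotype label. Gfi1 itself, on its single probe, read 4260 units on the wild-type-labelled array and 18100 units on the knockout-labelled array. The higher reading is thus on the array labelled knockout. The allele is not given and the probe's place in the gene was not analysed here. Whether the labels are right cannot be told from this reading. The arrays are therefore named by their labels, and a direction below is only as sure as those labels. Xist, the RNA of the inactive X chromosome, read 447 and 3.86 units and the Y-linked Eif2s3y 2.91 and 3870 units in the same order. These sex-linked transcripts thus differed together with the genotype label. For every gene below, on whatever chromosome, the part of the genotype and that of the sex of the animals cannot be told apart. The 75th percentile of the probe signals, to which the arrays were scaled, was 263 and 269 units. Of 13411 genes detected on at least 1 array, the median log2 difference, knockout label minus wild-type label, was -0.05. The error of a single spot was taken from probes printed 10 times, whose log2 differences had a median SD of 0.35 at 15 to 50 units, 0.11 at 50 to 500 units, 0.05 at 500 to 5000 units and 0.04 above.

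Slamf7 was the member that differed most, Slamf1 and Cd2 were moderately higher on the knockout-labelled array, and Slamf6 was the lowest. Of the 9 members, 1 was at least 2-fold higher, against a background of 3.62% of all detected genes. At least 2-fold lower were 0 members, against 1.52%. At 1.5-fold the counts were again 1 higher and 0 lower, against 7.67% and 4.25%. A count of 1 in 9 is too small to set apart from these shares. The members' median difference was -0.13, with 4 members above 0 and 5 below, beside -0.05 over all detected genes. The sign of this median was not stable: it was 0.014 with the brightest probe of each gene and 0.26 without spots above feature number 50000. In RNA of a whole culture, fewer cells of a type and less RNA per cell cannot be told apart.

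**Figure D1:**
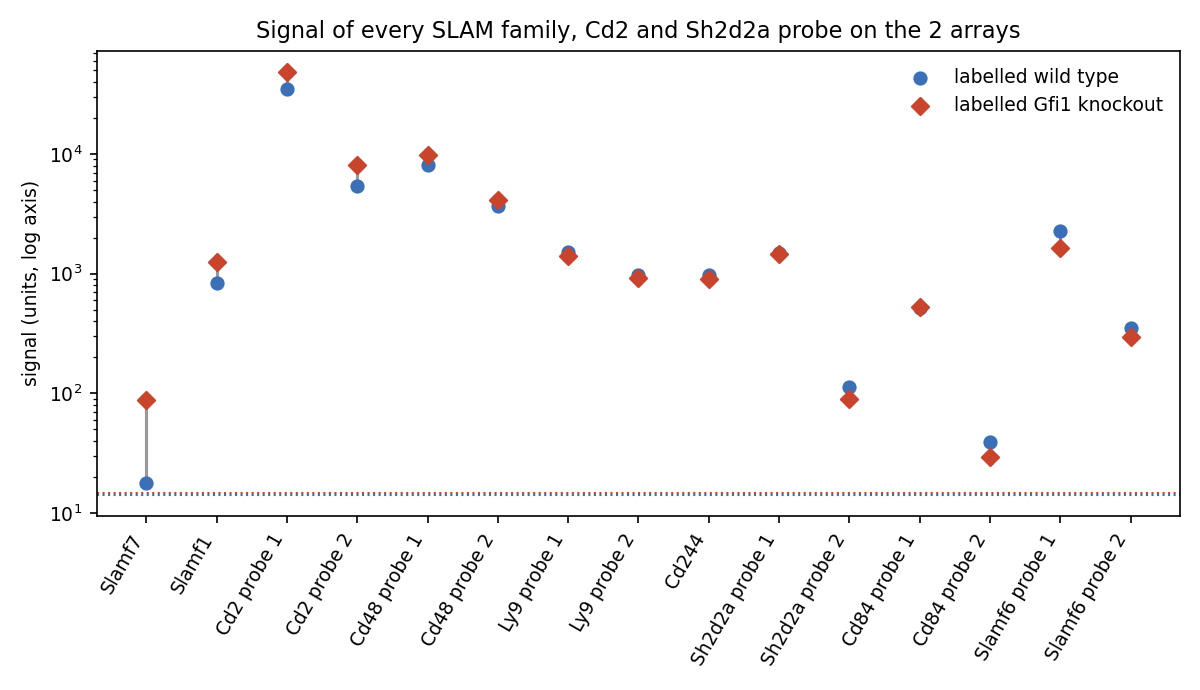
Signal in units (log axis) of each of the 15 member probes on the 2 arrays, 1 circle for the wild-type-labelled array and 1 diamond for the library labelled Gfi1 knockout, with genes in the order of their differences and a gene's brighter probe first. Dotted lines are the detection floors (14.2 and 14.6 units). Only the Slamf7 probe lies close to a floor on one array and well above it on the other.

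Slamf7 encodes CRACC, a receptor that binds itself and is known from NK cells, cytotoxic T cells and activated B cells. Its single probe read 17.8 units on the wild-type-labelled array and 87.7 units on the knockout-labelled array. The first reading was 1.25 times the floor and the second 6.01 times. The log2 difference was 2.27, or 4.82-fold, larger than the within-array SD of 0.35 for probes this dim. It ranked 95 from the top among the 13411 detected genes. Of the 1980 genes with mean signals of 15 to 50 units, 2.47% were at least 4-fold higher. Its spot has the feature number 7203. With 16 units added to every signal the difference was 1.59, and with the floor at each array's 75th percentile the probe counted as undetected on both arrays.

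Markers of other cell types also differed between the arrays. Of all 13411 detected genes, 5581 were higher and 7830 lower on the knockout-labelled array. Both CD8 T cell markers, Cd8a and Cd8b1, were higher on the knockout-labelled array, and their summed signals were 131 and 279 units on the wild-type-labelled and knockout-labelled arrays. Cd8a, at 4.07 units, did not reach the floor on the wild-type-labelled array. A gene detected on 1 array only could only count as higher there, since its other side was set to the floor. Of the 6 NK cell markers 5 were higher, with sums of 139 and 198 units. Ncr1, Klrb1c, Klrk1 and Klre1 did not reach the floor on the wild-type-labelled array either, so their direction was fixed by the filter. On the knockout-labelled array, with its floor at 14.6 units, they read 18.2 to 28.3 units. Cd160 was lower, at 90.7 and 37.3 units. Of the 6 detected B cell markers 5 were higher, with sums of 524 and 1117 units. Ms4a1, which encodes CD20, read 18.9 and 221 units and Blnk read 30.6 and 386 units, while Cd79b, which B cell receptors need for signalling, read 281 and 256 units and both Pax5 probes lay below the floor on both arrays. Of the 6 myeloid markers 4 were detected, 2 of them higher and 2 lower, with sums of 310 and 624 units. Of these sums Mpeg1 gave 11.7 and 335 units, the first below the floor, so that it too could only count as higher. Its other probe, Lyz2 and Cd14 lay below the floor on both arrays. Adgre1 lay below the floor on the knockout-labelled array only, so it could only count as lower. Itgam stood at -0.07 ± 0.29 (SD, 3 probes), with its bright probe higher, at 4250 and 5170 units, and its dim probes lower. Of the 4 dendritic cell markers 2 were detected, Flt3 at 0.14 ± 1.31 (SD, 2 probes) and Siglech at -0.0004. Itgax and Xcr1 lay below the floor on both arrays. The detected Flt3 probes went opposite ways, at 43.3 and 25.7 units (-0.79) and at 3.19 and 30.5 units (1.07). The second of them lay below the floor on the wild-type-labelled array. Flt3 and Siglech together gave 534 and 903 units before the floor was applied, of which Siglech gave 522 and 875 units. Siglech joins a probe at 51600 and 50400 units with a dim probe at 5.28 and 15.2 units. The dim probe lay below the floor on the wild-type-labelled array. The part of these cells in the Slamf7 reading was not tested.

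Slamf1 encodes SLAM or CD150, the founding self-binding receptor of the family, which is displayed on activated T cells. Its single probe read 832 units on the wild-type-labelled array and 1240 units on the knockout-labelled array. The log2 difference was 0.54, or 1.46-fold, against a within-array SD of 0.05 at this signal. Of all detected genes 8.28% stood higher. Of the 4653 genes with mean signals of 500 to 5000 units, 4.08% were at least 1.5-fold higher, a size that Slamf1 did not reach except under cyclic loess scaling, where it stood at 0.61.

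Cd2, the receptor for Cd48 and an adhesion molecule of lymphocytes, was measured most often of all members. A probe printed on 10 spots read 5020 to 5990 units (median 5350) on the wild-type-labelled array. In the knockout-labelled array the same spots read 7440 to 8900 units (median 8110). The readings of these spots did not overlap between the arrays. Repeated spots this bright had a median SD of only 0.04, and how many other repeated probes also show no overlap was not counted. The log2 difference on this probe was 0.56 ± 0.04 (SD over 10 spots of 1 array pair), with a range of 0.50 to 0.63. The other Cd2 probe read 34600 and 48500 units, a difference of 0.45. Over both probes Cd2 stood at 0.51 ± 0.08 (SD, 2 probes), or 1.42-fold, and 9.01% of detected genes stood higher. The spots repeat the printing and not the culture, so this spread says nothing of how animals vary.

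**Figure D2:**
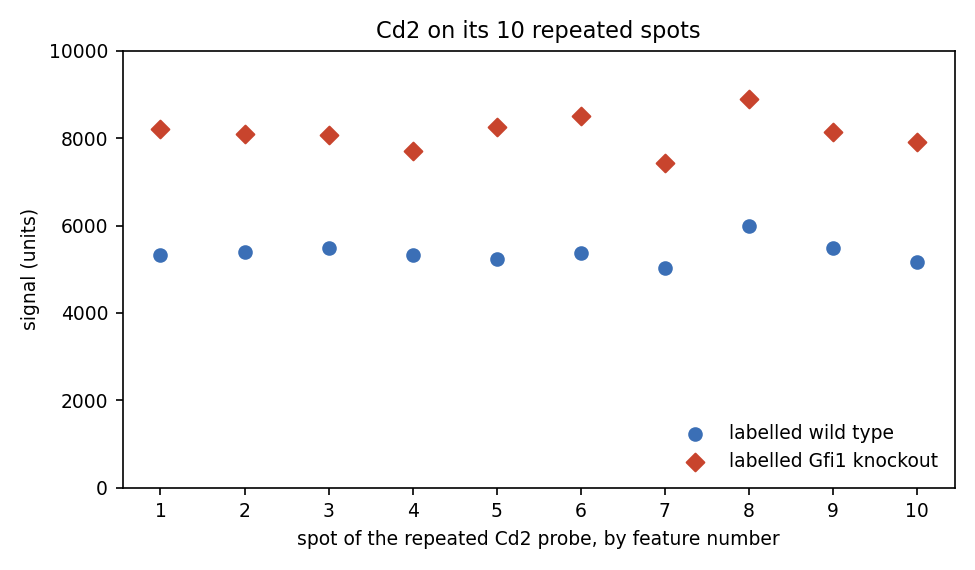
Signal in units (linear axis from 0) of the repeated Cd2 probe on each of its 10 spots, with circles for the wild-type-labelled array and diamonds for the knockout-labelled array. The diamonds, at 7440 to 8900 units, all lie above the circles, at 5020 to 5990 units. Other repeated probes were not counted for such a separation.

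Markers of T cells, Cd4 among them, stood on the other side. Cd3d, Cd3e, Cd3g, Cd4, Cd5 and Cd28 had differences from -0.43 to -0.14, all 6 of them lower on the knockout-labelled array. Of all 13411 detected genes 7830 were lower. The summed signals of the 6 markers were 158319 and 126746 units. Cd4 itself read 2319 and 2146 units over its 2 probes, a difference of -0.14, and 32.8% of detected genes stood lower. Cd2 was thus higher while these genes of the T cell lineage were lower. The summed marker signals of the arrays are given as values, and their part in the members' differences was not tested.

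Cd48 encodes a lipid-anchored ligand without a signalling tail, bound by both Cd2 and Cd244. Its probes read 8090 and 3710 units on the wild-type-labelled array and 9740 and 4090 units on the knockout-labelled array. Their log2 differences were 0.24 and 0.11, and their mean was 0.17 ± 0.09 (SD, 2 probes), or 1.13-fold. Of all detected genes 22.4% stood higher. Cd244, which encodes 2B4, the receptor for Cd48 on NK cells and some T cells, read 969 and 904 units on its single probe. Its difference was -0.13, and 35.0% of detected genes stood lower. Among the genes whose proteins bind each other, Cd2 thus stood at 0.51, Cd48 at 0.17 and Cd244 at -0.13, the last close to the -0.05 of the median gene.

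Ly9 encodes CD229, a self-binding receptor with a long extracellular part. Its probes read 1510 and 984 units on the wild-type-labelled array and 1400 and 924 units on the knockout-labelled array. Both probes gave nearly the same difference, -0.14 and -0.12, and the gene stood at -0.13 ± 0.01 (SD, 2 probes). That is close to the -0.05 of the median gene, and 35.0% of detected genes stood lower.

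Cd84 encodes another self-binding receptor, known from contacts between T and B cells. On its probes the direction was not settled. The brighter one read 514 units on the wild-type-labelled array and 531 units on the knockout-labelled array, a difference of 0.01. The dim one read 38.9 and 29.5 units, a difference of -0.43 on a spot with a feature number above 50000. The within-array SD of dim probes was 0.35, taken over repeated probes whatever their feature numbers. The mean was -0.21 ± 0.32 (SD, 2 probes), an SD larger than the value.

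Slamf6 encodes Ly108, a self-binding receptor of T, B and NK cells that signals through SAP. Its probes read 2270 and 351 units on the wild-type-labelled array and 1650 and 298 units on the knockout-labelled array. Both were lower under the knockout label, at -0.49 and -0.27, and the gene stood at -0.38 ± 0.16 (SD, 2 probes), or 1.30-fold lower. It was the lowest of the members, and 9.36% of detected genes stood lower still. Both Slamf6 spots have feature numbers above 50000. Among spots under 500 units that were detected, 25.7% of such late-numbered spots differed by 2-fold or more against 9.68% of the others, whereas at 500 units or more the shares were 1.53% and 1.48%. Both spots of Cd48 and that of Cd244 also lie in this range. None of these 3 genes has a named spot at lower numbers, and the part of the spot position in their values was not tested.

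Sh2d2a, the adaptor gene, read 1480 and 112 units on its probes on the wild-type-labelled array and 1460 and 90.6 units on the knockout-labelled array. The differences were -0.05 and, on the dim probe, -0.34. The gene stood at -0.20 ± 0.20 (SD, 2 probes), so its distance from 0 was no larger than the spread between its probes.

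In order of difference the members ran Slamf7, Slamf1, Cd2, Cd48, Ly9, Cd244, Sh2d2a, Cd84 and Slamf6. Slamf1 and Cd2 did not differ from each other beyond the spread of the Cd2 probes. Ly9, Cd244, Sh2d2a and Cd84 lay between -0.13 and -0.21, within the probe spread of Sh2d2a and Cd84. Of the 6 members with 2 probes, 5 had both probes on the same side of 0, and Cd84 did not. The share of all genes with 2 probes for which this holds was not counted.

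**Figure D3:**
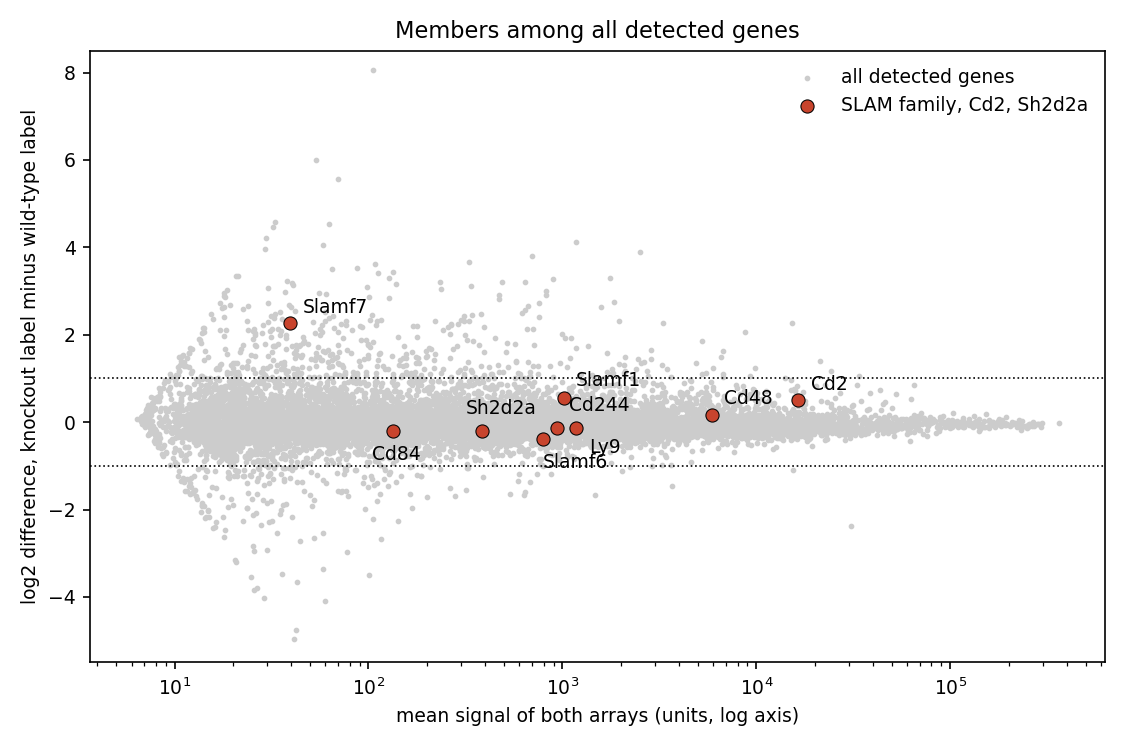
Log2 difference, knockout label minus wild-type label, against mean signal of both arrays in units (log axis) for the 13411 detected genes (grey) and the 9 members (red, named). Dotted lines mark 2-fold. Slamf7, at 2.27, is the only member beyond them, and the other 8 lie between -0.38 and 0.54.

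Of the listed genes that carry the signals of these receptors, Sh2d1a differed most. This gene, which encodes SAP, read 3080 units on the wild-type-labelled array and 5830 units on the knockout-labelled array. The difference was 0.89, or 1.85-fold, on 1 probe whose spot has a feature number above 50000. Of all detected genes 4.34% stood higher. The list of signalling partners held 17 genes, among them the SLAM family genes Slamf8 and Slamf9, and 13 were detected, Slamf9 included. Past 1.5-fold were 1 of these 13 on the higher side (7.67% of all detected genes) and 0 on the lower (4.25%). A count of 1 in 13 is too small to set apart from these shares. The median of the 13 was 0.00, beside -0.05 over all genes. Sh2d1b1 and Sh2d1b2, which encode the SAP-like adaptors EAT-2 and ERT known from NK cells, lay below the floor on both arrays, at 2.82 to 4.69 units. Lck was not analysed here.

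The kinases and phosphatases downstream hardly differed. Fyn, the kinase that SAP recruits, read 873 and 863 units, a difference of -0.05. Ptpn6, the gene of SHP-1, stood at 0.04, Ptpn11, the gene of SHP-2, at -0.18, and Inpp5d, the gene of SHIP-1, at 0.00. The exchange factor gene Vav1 stood at -0.05 ± 0.01 (SD, 2 probes) and Prkcq, a protein kinase C of T cells, at 0.09. Of the genes for proteins that bind the Cd2 tail, Pstpip1 stood at 0.21, Cd2ap at 0.10 and Cd2bp2 at 0.00 ± 0.11 (SD, 2 probes). Was, an actin regulator, stood at -0.01. Arhgef7, the gene of a SAP-binding exchange factor, stood at -0.53 ± 0.66 (SD, 2 probes), which rests on a dim late-numbered spot of 28.4 and 13.9 units. The second reading lay below the floor, so that spot gives only a bound. The bright Arhgef7 probe gave -0.06.

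The other SLAM family genes of the locus were dim. Slamf8 lay below the floor on both arrays, at 3.47 and 3.62 units, and Slamf9 read 53.6 and 39.0 units, a difference of -0.49 on 1 dim probe. Between Cd244 and Slamf8, the outermost family genes, the RefSeq order holds 35 further genes, of which 18 are on the array by name and 13 were detected. Their median was -0.05, the same as that of all genes. Of these 13, 1 was at least 1.5-fold higher, Cfap45, on a probe near the floor (14.3 and 26.5 units), and 0 were at least 1.5-fold lower, beside 7.67% and 4.25% of all detected genes. The brightest of the rest were Tagln2, which encodes an actin-binding protein (0.22 ± 0.08, SD, 2 probes), Tma7-ps (-0.18), the coat protein gene Copa (-0.09 ± 0.01, SD, 2 probes) and Dcaf8 (-0.21 ± 0.11, SD, 2 probes). Along the chromosome, Slamf7 (2.27) thus lay between Ly9 (-0.13) and Cd48 (0.17), and Slamf1 (0.54) lay next to Cd84 (-0.21).

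**Figure D4:**
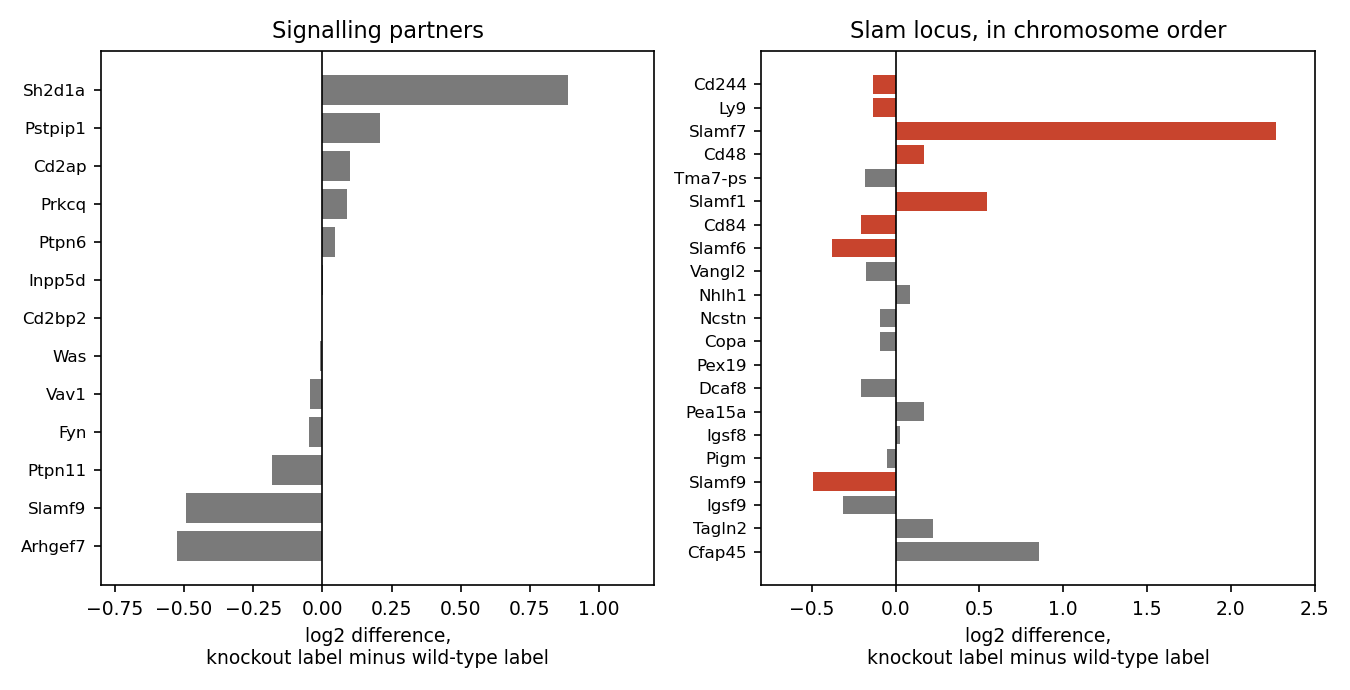
Log2 differences, knockout label minus wild-type label, as bars for the 13 detected signalling partners (left, ordered by value) and for the detected genes of the Slam locus in chromosome order (right, SLAM family genes in red and other genes in grey). Sh2d1a, at 0.89, is the longest bar on the left, and Slamf7, at 2.27, on the right, with its neighbours Ly9 and Cd48 near 0.

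**Figure D5:**
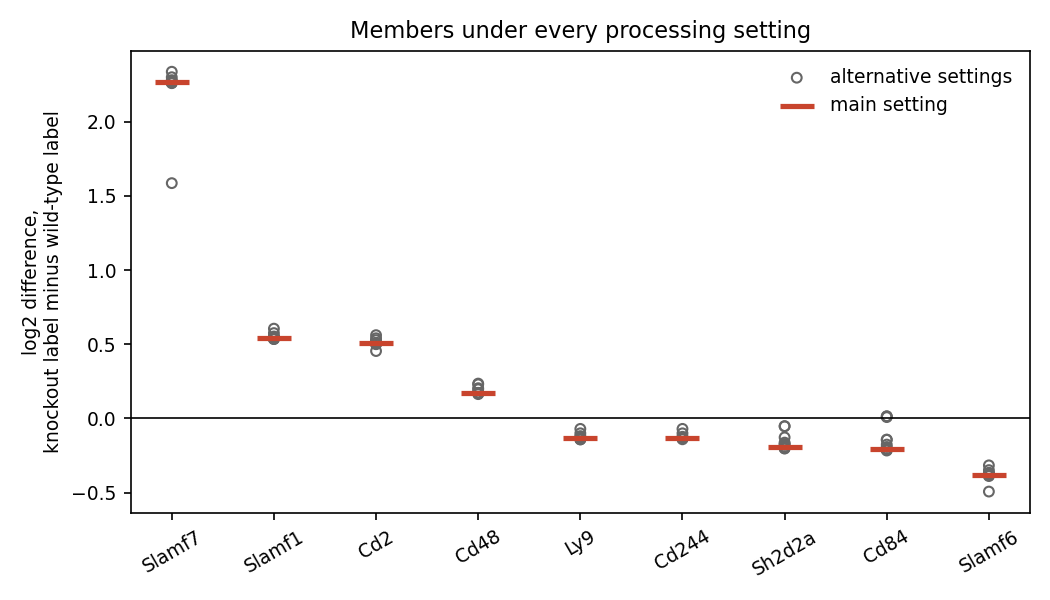
Log2 difference, knockout label minus wild-type label, of each member in the main setting (red bar) and under the alternative settings that give it a value (open circles). Slamf7 ranges from 1.59 to 2.34, and Cd84 is the only member whose circles lie on both sides of 0.

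Slamf7 stayed between 1.59 and 2.34 in the 12 alternatives that gave a value. Slamf1 stayed between 0.54 and 0.61 and Cd2 between 0.45 and 0.56 in 13, and Slamf6 between -0.49 and -0.32 in 12. Cd84 passed to 0.01 in 3 alternatives, those that dropped its dim probe.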

How the data were processed

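The series holds 2 arrays, each with RNA of 1 culture, for the labels Gfi1 wild type and Gfi1 knockout. For each array 100 ng of RNA was amplified and Cy3-labelled, per the labels' protocols, and Agilent Feature Extraction 11.5.1.1 was used, per the submitters' processing notes. The authors' deposited files give a linear intensity per spot under a heading that calls it raw. How its background was corrected is not stated in those notes, and flags or control spots were not used here. The authors' series-level table, also deposited, holds intensity values equal to the first times about 2.27 and 2.26 (median ratios, labelled wild type and knockout); it is linear and not centred, why this factor was used stays unknown, and it served as an alternative. The number of arrays limits the precision.

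Signals were averaged over the spots of a probe on the log2 scale, and scaled by subtracting the 75th percentile of the array's 55681 probes. A probe counted as detected above its array's median, and an undetected side was set to that floor. Each gene was given the mean of those of its probes that were detected on either array, and signals of a gene are geometric means over them. Symbols came from the platform annotation and were updated through the RefSeq table of GRCm38.p6 (29036 of 31465 named spots by accession, 2075 by symbol, 349 by synonym, 5 kept); Cd244 keeps the annotation's name. Promoter windows were cut to 250 bases before the start; windows that overlap on opposite strands were checked to be reverse complements, and all 1839 were.

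With 1 array per genotype no significance test was run; genes were counted at 2-fold and 1.5-fold. The members and lists were chosen with earlier results of these data known. The text names every member, Gfi1, and of the partner and locus lists the genes past 1.5-fold and the 4 brightest others; other genes named were chosen after their values were seen. The processing was varied by quantile normalization, by scaling to the median, by cyclic loess (span 0.3), by using the authors' table, by leaving out scaling, and by floors at the 25th and 75th percentile, probes detected on both arrays, no filter, the brightest probe, the median over probes, 16 units added, and no spots above feature number 50000. Some items of the lists are not reported here. The steps from spot signals to gene values were checked on simulated signals with known folds. The folds were planted in brighter genes only, so the check does not cover signals as dim as that of Slamf7. Python 3.11.15, pandas 2.3.3, numpy 2.4.6 and statsmodels 0.14.6 were used.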

Additional observations from a re-analysis of the deposited data

How the results depend on the processing

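Values of single members moved by less than the within-array SD in 98 of 113 cases and by more in 15. With the floor at the 75th percentile the members' median was -0.019 and 0 members were at least 2-fold or 1.5-fold higher, since Slamf7 then counts as undetected; 0 locus genes were 1.5-fold higher, and over all genes 136 were at least 2-fold higher and 20 lower, and 361 and 112 at 1.5-fold (main setting 485, 204, 1029 and 570). With the brightest probe the members' median was 0.014. Without spots above feature number 50000 it was 0.26, where Cd48, Cd244 and Slamf6 have no value and Cd84 loses its dim probe; 0 partner genes were 1.5-fold higher, since Sh2d1a has none either, and 105 of all genes were 2-fold lower. Cyclic loess put 2 members past 1.5-fold, Slamf7 and Slamf1. With the floor at the 25th percentile 1 partner gene and 1 locus gene were 1.5-fold lower, and over all genes 980 and 634 passed 2-fold and 2028 and 1510 passed 1.5-fold, higher and lower. With no filter and no floor 2 partner genes were 1.5-fold higher and 1 lower, 1 locus gene was 1.5-fold lower, and 1004 and 638 of all genes passed 2-fold and 2025 and 1492 passed 1.5-fold. With 16 units added 0 locus genes were 1.5-fold higher, and 117 of all genes were 2-fold lower and 352 1.5-fold lower. With probes detected on both arrays 125 were 2-fold lower. The cause of the shifts in counts over all genes was not tested. Of the scalings, cyclic loess moved the median of all genes most, by 0.061. No paired analysis was possible because each genotype has 1 sample. Dim signals limit Slamf7, Slamf9 and the second probe of Cd84, and no value here has a replicate culture.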

Other observations

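Adhesion receptors outside the SLAM family, a list chosen after the data were seen, ranged from -0.99 to 1.86. Among 14 detected genes the median was 0.19, and 2 genes passed 2-fold on the higher side (knockout-labelled array) and 0 on the lower side, beside 3.62% and 1.52% of all detected genes. At 1.5-fold the counts were 2 higher and 2 lower, beside 7.67% and 4.25%. Jaml, a junctional adhesion molecule of lymphocytes, read 2720 and 10100 units (labelled wild type and knockout), a difference of 1.86, and Icam1, a ligand of the integrin LFA-1, read 111 and 350 units, a difference of 1.62. Icam2, another ligand of that integrin, read 9570 and 6100 units (-0.68), and Crtam, a receptor of activated cytotoxic cells, read 5040 and 2600 units (-0.99). Cd6, a relative of Cd5, stood at -0.51 ± 0.02 (SD, 2 probes).

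Of 15 detected adaptors of T cell receptor signalling, a list also chosen after the data were seen, 2 passed 1.5-fold on the higher side and 0 on the lower, beside 7.67% and 4.25% of all detected genes, around a median of 0.12. These were Themis at 0.68 (2 probes) and Sh3bp2 at 0.64, while Lat stood at -0.11, Lcp2, the gene of SLP-76, at -0.12 and Skap1 at 0.03.

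One spot of the repeated Cd8a probe stood apart. On 9 spots of the wild-type-labelled array it read 2.69 to 3.59 units, and on the spot with feature number 54224 it read 70.8 units. In the knockout-labelled array the same 10 spots read 30 to 46.2 units. On the repeated Cd2 probe the spots with feature numbers 53197 and 62054 gave differences of 0.53 and 0.58, inside the range of its other 8 spots.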
